A study of Mus musculus with 32 samples.

Results

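The trace amine-associated receptors, or TAARs, described here are 7 mouse genes: Taar1, Taar2, Taar3, Taar4, Taar5, Taar6 and Taar9. A gene was taken when a probe set of the array carried its symbol and no other, and each of the 7 had exactly 1 such probe set, so no choice among probe sets was needed. They are 7 of 19938 genes tested. Taar1 is the non-olfactory member, and the other 6 are olfactory receptors. Probe sets for TAARs numbered 15 on the array, 13 of them with a single symbol.

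RNA was measured on 32 microarrays of cells from the olfactory mucosa of adult S100a5-tauGFP mice. All groups carry this reporter, in which GFP marks cells that express S100a5, a gene that olfactory sensory neurons switch on with activity. Mice were kept singly in an olfactometer with clean air for 26 h and then received odorant or vehicle for 14 h, in pulses of 10 s every 5 min. Dissociated cells were sorted into a GFP-positive and a GFP-negative fraction. There were 8 groups of 4 arrays. In the eugenol experiments they were vehicle GFP-positive, vehicle GFP-negative, eugenol GFP-positive and eugenol GFP-negative. In the muscone experiments they were vehicle GFP-positive, vehicle GFP-negative, muscone GFP-positive and muscone GFP-negative. Eugenol is the main odorant of clove, and muscone is the main odorant of musk. Each experiment (eugenol 1 to 4, muscone 1 to 4) gave 1 array of each of its 4 groups. Nothing in the labels tells if the arrays of a group are from different mice or from pools, so p-values measure the spread between these arrays, which may be technical.

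TAARs are G protein-coupled receptors that detect amines. The olfactory members are made by a small population of olfactory sensory neurons, mostly in the dorsal epithelium, and a neuron that expresses a TAAR does not express an odorant receptor of the Olfr family. These neurons use the same cascade as other olfactory neurons, in which Gnal, the olfactory G protein, activates the adenylyl cyclase Adcy3 and cyclic AMP opens the Cnga2 channel. Known ligands are isoamylamine for Taar3, beta-phenylethylamine for Taar4 and trimethylamine for Taar5. Taar1 is expressed in the brain and other tissues and is not known as an olfactory receptor. Eugenol and muscone are not amines.

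Mouse TAAR genes lie together on chromosome 10. In the RefSeq table of assembly GRCm38.p6 the order is Taar1, Taar2, Taar3, Taar4, Taar5, Taar6, Taar7a, Taar7b, Taar7c-ps, Taar7d, Taar7e, Taar7f, Taar8a, Taar8b, Taar8c and Taar9. This makes 15 protein-coding TAAR genes and 1 TAAR pseudogene. RefSeq promoter windows, 250 bases before to 50 after the start of a gene model, were found for 11 TAARs, 5 of them members (Taar2, Taar3, Taar5, Taar6 and Taar9). The 11 models begin at the start codon, so the windows lie directly upstream of the coding sequence and need not hold the true transcription start. They were searched on both strands for TAATTA and TAATTG, sites of homeodomain factors such as Lhx2 that are common upstream of odorant receptor genes, and for CCCNNGGG, the core of Ebf factor sites. TAATTA and TAATTG differ only in the last letter, and no TAAR window held both. Whether a site bears on the signal of its gene was not tested. The sites are shown because Taar6 and Taar9, which carry the same letters close to the start codon, stood far apart in the sorted fractions described below. Each is 30 bases of the gene's own strand, with the match in capitals; CAATTA is TAATTG read on the other strand.
Taar6: gagaaccgaattCAATTAcaggacttctgc
Taar9: ctgggaagtttaCAATTAccaagactggag
Taar7b: aacatgtattagCAATTAcacactgcactt
Taar8b: ttaatttctttaTAATTAaaatagaaaaag
The Taar6 stretch is chr10:23985666-23985695 on the minus strand, and its match lies 37 to 32 bases before the start codon. For Taar9 it is chr10:24109538-24109567, also on the minus strand, with the match 21 to 16 bases before the start codon. The Taar7b stretch is chr10:23999882-23999911 on the plus strand, with the match 45 to 40 bases before the start codon. For Taar8b it is chr10:24092425-24092454 on the minus strand, with the match 148 to 143 bases before the start codon. TAATTG was in 3 of 11 TAAR windows (2 of the 5 member windows), in 23.2% of 948 odorant receptor windows and in 8.0% of all 32851 windows. TAATTA was in 1 of 11 TAAR windows, 18.6% of odorant receptor windows and 5.29% of all. CCCNNGGG was in 0 of 11, 3.06% and 13.7%. The median GC content was 37.3% in the TAAR windows, 35.0% in the odorant receptor windows and 52.7% in all. The windows of Taar2, Taar3 and Taar5 held none of the 3 motifs, which says only that these letters are not there.

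Values are log2 signals, and a difference of 1 is a doubling. Probe sets differ in brightness, so a level is compared only with the same gene's level on other arrays. Array medians ran from 6.72 to 8.81 and differed by experiment: the 4 arrays of muscone 3 had a mean median of 6.78, the lowest, and those of eugenol 2 had 8.69, the highest. The experiment was therefore a block in the fit. The 14 measured markers of mature olfactory neurons were bright in both fractions. Their median signal ran from 12.5 to 13.4 in vehicle GFP-negative arrays of the eugenol experiments and from 10.8 to 13.1 in those of the muscone experiments. In vehicle GFP-positive arrays it ran from 12.8 to 13.6 and from 12.1 to 13.6. The 10 immune markers had a median of 10.3 to 11.7 over vehicle GFP-negative arrays and 7.20 to 8.47 over vehicle GFP-positive arrays, so the GFP-negative cells were a mixture that held leukocytes as well as neurons. In sorted bulk samples, fewer cells of a type and less RNA per cell cannot be told apart.

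Without odorant, GFP-positive cells carried more RNA of 4 of the 6 olfactory members than GFP-negative cells. Taar9 and Taar4 were more than 4-fold higher, and Taar5 and Taar3 more than 2-fold. Taar2 was lower in GFP-positive cells, and Taar6 did not pass the test. All 16 vehicle arrays entered this comparison, 8 of each fraction.

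Taar9, an olfactory amine receptor, had vehicle signals of 10.42, 11.94, 9.39 and 10.74 in the GFP-positive cells of eugenol experiments 1 to 4. The matching GFP-negative signals were 8.46, 10.28, 7.26 and 8.19. In muscone experiments 1 to 4 the GFP-positive signals were 10.99, 11.50, 9.74 and 10.27. The GFP-negative signals there were 9.39, 9.38, 6.78 and 7.25. Within each of the 8 experiments the GFP-positive array was the higher, although the ranges overlap across experiments. The difference was +2.25 (SE 0.19, 95% interval 1.87 to 2.64), or 4.76-fold, with an adjusted p of 1.06e-09 in limma. Single experiments gave +1.59 in muscone 1 to +3.02 in muscone 4.

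Taar4, the beta-phenylethylamine receptor, read 11.59, 12.82, 11.21 and 11.81 in vehicle GFP-positive cells of eugenol experiments 1 to 4 and 9.88, 11.59, 9.47 and 9.81 in GFP-negative cells. In muscone experiments 1 to 4 the GFP-positive signals were 12.05, 10.87, 10.21 and 11.61. The GFP-negative signals were 10.65, 7.24, 7.06 and 9.52. The muscone 2 and muscone 3 GFP-negative arrays stood lowest, and the differences in these experiments, +3.63 and +3.15, exceeded the +1.23 to +2.10 of the other 6. Over the 8 experiments Taar4 was +2.12 higher (SE 0.19, interval 1.73 to 2.51), 4.35-fold, adjusted p 2.74e-09.

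Taar5, the trimethylamine receptor, was higher in the GFP-positive array of 8 of 8 experiments, by +0.29 in eugenol 2 to +2.20 in muscone 3. Its vehicle signals in the eugenol experiments were 8.40, 9.38, 8.72 and 9.57 in GFP-positive cells and 7.69, 9.09, 7.14 and 7.90 in GFP-negative cells. In the muscone experiments they were 8.71, 9.01, 8.32 and 8.45 against 7.85, 7.30, 6.12 and 7.26. There the fractions did not overlap. The difference was +1.27 (SE 0.14, interval 0.985 to 1.56), 2.42-fold, adjusted p 7.22e-08.

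Taar3, the isoamylamine receptor, was uneven between experiments. Its vehicle GFP-positive signals were 11.25, 11.60, 9.36 and 10.70 in the eugenol experiments and 11.78, 11.02, 9.18 and 11.10 in the muscone experiments. The GFP-negative signals were 10.34, 11.10, 9.71 and 9.37, and then 11.33, 9.51, 7.47 and 8.83. Eugenol 3 went the other way, at −0.35, and the other 7 experiments gave +0.45 to +2.27. The difference was +1.04 (SE 0.22, interval 0.576 to 1.5), 2.06-fold, adjusted p 3.79e-04. After every array was centred on the median of the odorant receptors it was +0.40, with an adjusted p of 0.0670.

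Taar2 was lower in GFP-positive cells. Vehicle GFP-positive signals were 7.79, 9.11, 7.42 and 6.66 in the eugenol experiments, against 8.18, 10.00, 8.17 and 8.28 in GFP-negative cells. In the muscone experiments the GFP-positive signals were 7.81, 8.74, 6.54 and 6.59, against 8.71, 8.81, 6.55 and 8.0. The sign was the same in 8 of 8 experiments, but muscone 3 and muscone 2 were nearly level, at −0.0038 and −0.06, while eugenol 4 reached −1.62. The difference was −0.75 (SE 0.19, interval −1.15 to −0.356), which is 1.69-fold lower, adjusted p 0.00176.

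Taar6 gave −0.28 (SE 0.14, interval −0.566 to 0.00593), with an adjusted p of 0.0767. It was lower in 7 of 8 experiments, from −0.58 in muscone 1 to +0.18 in muscone 3. Without muscone replicate 3 its adjusted p was 0.00655, with array weights 0.0208 (−0.35), and −0.92 was found once arrays were centred on odorant receptors. Taar1 read 3.88 to 6.42 over all 32 arrays. This is the dim end of the scale, where the vomeronasal receptors, genes of another organ, had a median of 4.68. Its difference of +0.25 (SE 0.11, adjusted p 0.0449) was near the +0.17 median of the 167 vomeronasal receptors. That call ended without eugenol replicate 3 or without any single muscone replicate (adjusted p 0.0655 to 0.0921) and with quantile normalization (0.0705). Centring on odorant receptors turned the Taar1 difference to −0.40 (adjusted p 2.85e-04). Most of all genes were called lower with that centring, which holds for the Taar6 value above as well.

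In all, 5 of the 7 members were higher in GFP-positive cells, 1 was lower and 1 did not pass. Among all genes 67% were called, 45.1% higher and 21.9% lower, so a call by itself does not set a member apart. Among the members, the fit without the experiment as a block called only Taar4, Taar5 and Taar9. The median difference was +1.16 over the 6 olfactory members, +0.75 over 1027 odorant receptors and +0.14 over all genes.

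**Figure D1:**
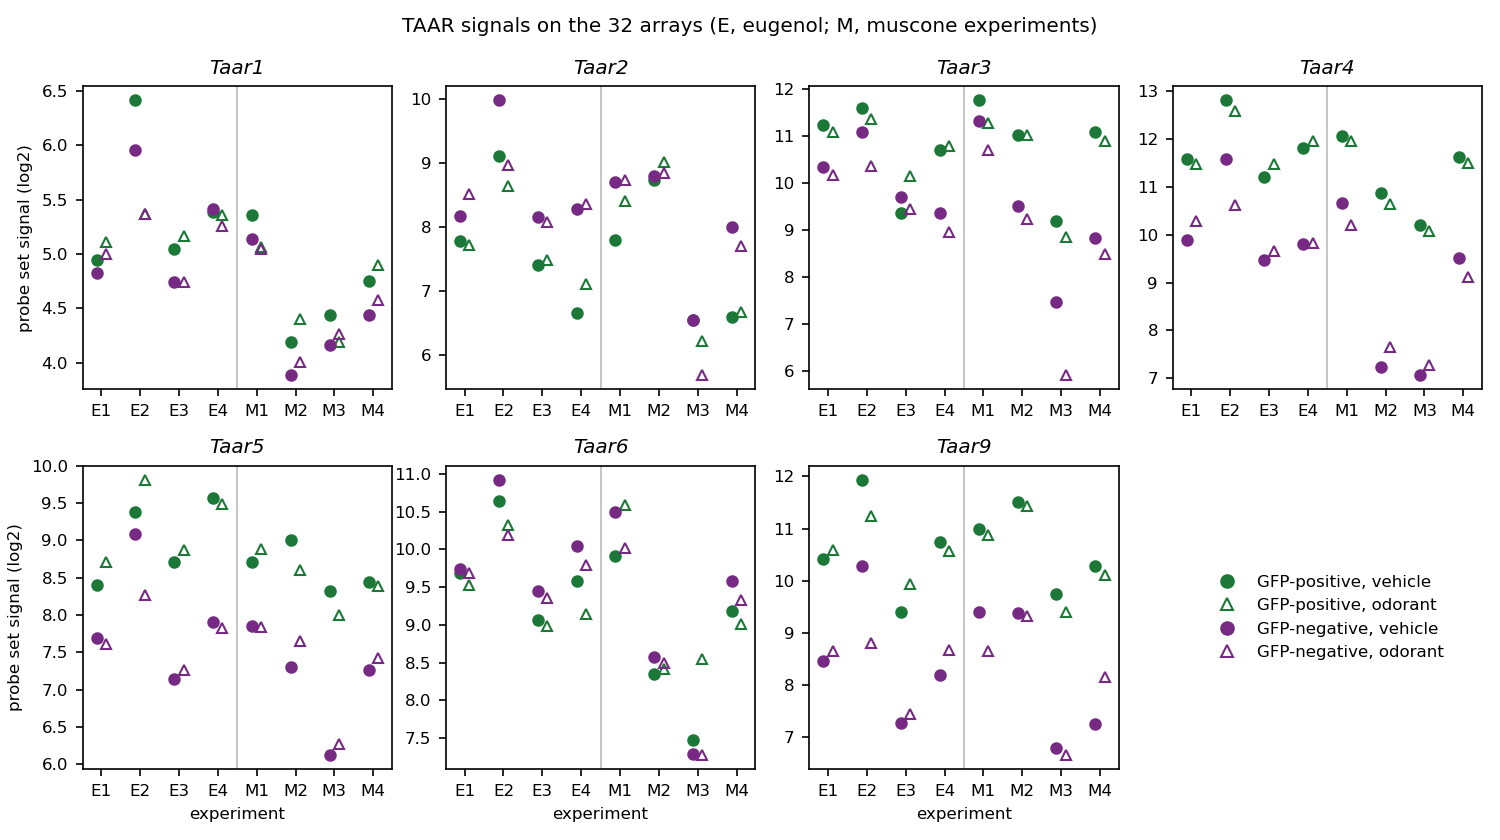
Probe set signal (log2, vertical axis, own scale for each gene) of the 7 TAAR genes in the 8 experiments (horizontal axis; E1 to E4, eugenol; M1 to M4, muscone), with 1 point per array. Circles are vehicle and triangles odorant arrays, green GFP-positive and purple GFP-negative; the green points of Taar4, Taar5 and Taar9 lie above the purple points in each experiment, and those of Taar2 lie mostly below.

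The members were not alike among themselves. In each vehicle experiment the fraction differences of a pair of olfactory members were compared by an exact two-sided sign-flip permutation test over the 8 experiments. All 15 pairs were compared and p-values were adjusted over them. Taar9 and Taar4 differed by 0.13 (SD 0.73, n = 8; exact p 0.633), with single experiments from −0.92 to +1.5 for Taar4 minus Taar9. Taar3 and Taar5 differed by 0.23 (SD 0.85, n = 8; exact p 0.531, adjusted 0.569). The other 13 pairs passed at an adjusted p of 0.0107 or 0.0180. The smallest p the test can give is 0.00781. Taar9 exceeded Taar5 by 0.98 (SD 0.47) in 8 of 8 experiments. Taar2 lay below Taar6 by 0.47 (SD 0.43) in 7 of 8 (exact p 0.0156), and it lay below Taar9 by 3.0 (SD 0.84) in 8 of 8. The pair test was added after the values of the members were seen, so it describes their order and is not separate support for it. In order, Taar9 and Taar4 were followed by Taar5 and Taar3, then Taar6, then Taar2. These are differences of probe set signals, and how closely each probe set follows its transcript was not measured.

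**Figure D2:**
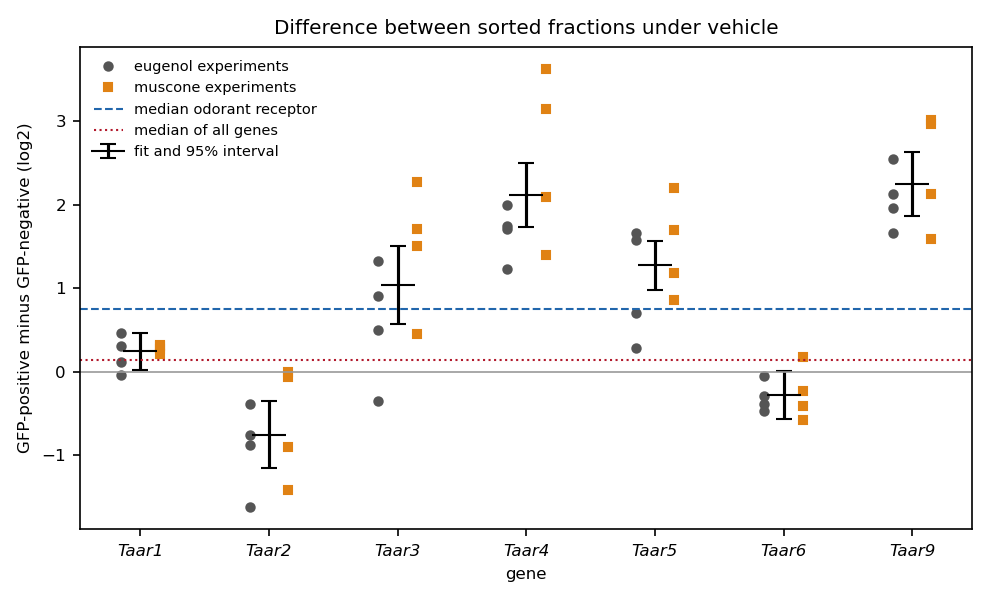
GFP-positive minus GFP-negative signal under vehicle (log2) for each TAAR gene, with 1 point per experiment (circles eugenol, squares muscone) and a black bar for the fit with its 95% interval. The dashed line is the median odorant receptor (+0.75) and the dotted line the median of all genes (+0.14); Taar9 (+2.25) and Taar4 (+2.12) lie highest, Taar2 (−0.75) lies lowest, and the interval of Taar6 reaches 0.

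Odorant receptors, the other large receptor family of these neurons, were set beside the TAARs in the same comparison. Of the 1027 tested, 84.9% were called, 65.5% higher and 19.4% lower. A larger difference than that of Taar9 was found in 2.73% of them, and than that of Taar4 in 3.80%. For Taar5 the share was 27.2% and for Taar3 37.8%. Taar6 and Taar2 lay on the low side, with 79.7% and 86.2% of odorant receptors above them. The olfactory TAARs therefore spread over most of the odorant receptor distribution. When arrays were centred on the odorant receptor median, Taar9 was +1.61 (adjusted p 1.19e-09), Taar4 +1.48 (6.59e-09) and Taar5 +0.63 (3.73e-05) in GFP-positive cells. Taar2 was then −1.40 (1.35e-07). Most of all genes were called lower in that setting as well.

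**Figure D3:**
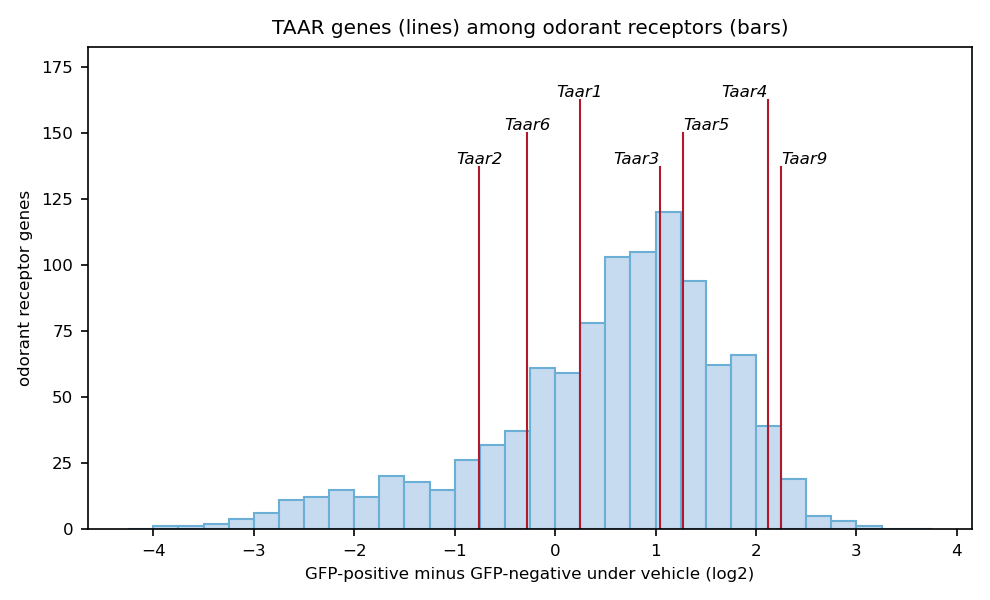
Histogram of the GFP-positive minus GFP-negative difference under vehicle (log2, horizontal axis) for 1027 odorant receptor genes (vertical axis, number of genes), with a labelled line for each TAAR gene. Taar9 and Taar4 stand in the upper tail, where 2.73% and 3.80% of odorant receptors lie beyond them, and Taar2 and Taar6 in the lower part.

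After eugenol the fractions differed much as they did under vehicle, now over 4 experiments. Taar9 was higher by +2.19 (SE 0.26, adjusted p 7.88e-07), with GFP-positive signals of 10.59, 11.24, 9.93 and 10.57 and GFP-negative signals of 8.65, 8.81, 7.43 and 8.67. These did not overlap. Taar4 was +1.78 (SE 0.26, adjusted p 1.16e-05), with GFP-positive signals of 11.47, 12.58, 11.48 and 11.95 against 10.28, 10.61, 9.65 and 9.82. Taar5 was +1.48 (SE 0.20, adjusted p 2.98e-06), with single experiments from +1.10 to +1.66. Taar3 was +1.11 (SE 0.32, adjusted p 0.00659), but lost the call without eugenol replicate 4 (0.0693) and after odorant receptor centring (0.0906).

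Taar2 was −0.74 (SE 0.27, adjusted p 0.0296) after eugenol, lower in 4 of 4 experiments. Leaving out eugenol replicate 1, 3 or 4 ended this call, with adjusted p of 0.0826, 0.0699 and 0.148. Taar6 (−0.26, adjusted p 0.283) and Taar1 (+0.16, adjusted p 0.375) did not pass. Centring on mature neuron genes gave a lower call for Taar6, at −0.68 with an adjusted p of 0.00252. Odorant receptor centring gave −0.84 (5.16e-04) and turned Taar1 to −0.43 (0.00465). Either centring shifts all genes of the comparison alike, so such a call by itself does not set a member apart. Of the 7 members 4 were higher and 1 lower, where 46.6% of all genes were called, 28.3% higher and 18.3% lower. Of the odorant receptors 77.8% were called then, 59.3% higher and 18.5% lower. Without the block only Taar5 and Taar9 were called among the members.

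After muscone, Taar4 had the largest difference of the members, +2.47 (SE 0.26, adjusted p 6.06e-08). Its GFP-positive signals were 11.95, 10.63, 10.08 and 11.50 and its GFP-negative signals 10.21, 7.66, 7.28 and 9.13. Taar9 was +2.26 (SE 0.26, adjusted p 2.17e-07), with 10.87, 11.43, 9.39 and 10.10 against 8.65, 9.32, 6.65 and 8.15. In both genes each experiment's GFP-positive array was the higher, by at least +1.74 for Taar4 and +1.95 for Taar9.

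Taar3 was +1.93 after muscone (SE 0.32, adjusted p 1.98e-05), from +0.57 in muscone 1 to +2.96 in muscone 3. The muscone 3 GFP-negative array, at 5.90, was its lowest signal of all 32 arrays. Taar5 was +1.17 (SE 0.20, adjusted p 2.65e-05), but +0.23 with centring on odorant receptors (adjusted p 0.200). Taar2 (−0.17, SE 0.27, adjusted p 0.601) was lower in 2 of 4 experiments, with an interval of −0.731 to 0.393; odorant receptor centring gave −1.12 (1.96e-04). Taar6 (+0.37, adjusted p 0.113) was higher in 2 of 4 experiments. Centring on the median of all probe sets called it higher (+0.46, 0.0426), as did leaving out muscone replicate 4 (+0.59, 0.0231). Centring on odorant receptors gave −0.58 (0.00719), and on mature neuron genes −0.47 (0.0149). A centring shifts all genes of the comparison alike, so such a call by itself does not set a member apart. Taar1 (+0.17, adjusted p 0.340) did not pass. The count was 4 higher and 0 lower, where 56.6% of all genes were called, 35.1% higher and 21.5% lower. Of the odorant receptors 79.8% were called then, 67.2% higher and 12.7% lower. Without the block only Taar4 and Taar9 were called among the members.

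The study asked which receptors respond to an odorant in vivo, for which odorant and vehicle arrays of the same fraction were compared. Neither odorant changed any TAAR past the threshold in the values as deposited. In GFP-positive cells after eugenol the 7 differences ran from −0.24 (Taar6) to +0.21 (Taar5), 0 of 7 were called by limma, and 0 of 7 had a raw p under 0.05. Their 95% intervals together spanned −0.647 to 0.782, so changes within these bounds are not excluded by the data. Among all genes 0% were called and 923 had a raw p under 0.05. In GFP-negative cells after eugenol the range was −0.39 (Taar3) to −0.09 (Taar4), again with 0 of 7 called and 0 of 7 at a raw p under 0.05; 0% of all genes were called and 466 had such a p.

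After muscone the 7 differences in GFP-positive cells ran from −0.25 (Taar3) to +0.41 (Taar6), with intervals spanning −0.908 to 0.817. None of the 7 were called, where 0.00502% of all genes, a single one, were called higher; this gene is 0.0974% of the odorant receptors, and 746 genes had a raw p under 0.05. Taar6 was the only member among these in this comparison, with GFP-positive signals of 9.92, 8.34, 7.47 and 9.18 under vehicle and 10.59, 8.42, 8.55 and 9.01 after muscone. The differences were +0.67 in muscone 1 and +1.08 in muscone 3, and +0.07 and −0.17 in the other two, and the adjusted p was 0.999944. In GFP-negative cells the range was −0.70 (Taar3) to +0.16 (Taar5). Here 0 of 7 and 0% of all genes were called, and 1704 genes had a raw p under 0.05. With arrays centred on odorant receptors, Taar1 (+0.07 as deposited) was called at +0.35 (adjusted p 0.0330) and Taar5 at +0.44 (0.0367). Taar3 was among the genes with such a raw p as deposited, at −0.70 (interval −1.36 to −0.0451, adjusted p 0.552), lower in 4 of 4 experiments, most in muscone 3 (−1.57).

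The GFP-positive to GFP-negative difference did not change past the threshold either. These values use the same arrays as the comparisons above and are not separate evidence. For eugenol the changes ran from −0.05 (Taar1) to +0.52 (Taar3), with intervals spanning −0.664 to 1.44. None of the 7 were called by limma and 0 had a raw p under 0.05, where 0% of all genes were called and 237 had such a p. For muscone they ran from −0.31 (Taar5) to +0.63 (Taar6), with intervals spanning −0.942 to 1.38. Again 0 of 7 were called, and 0.00502% of all genes; 888 genes had a raw p under 0.05, among them Taar6 (+0.63, interval 0.0539 to 1.20, adjusted p 0.985). Taar2 stood at −0.59 ± 0.68 (SD, n = 4) under vehicle in the muscone experiments and at −0.17 after muscone, a change of +0.43 with an interval of −0.37 to 1.22, which did not pass (adjusted p 0.985).

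Eugenol and muscone effects in GFP-positive cells were also set against each other. Taar6 gave −0.66 (interval −1.23 to −0.0843, adjusted p 0.713) and was the only member with a raw p under 0.05. None of the 7 passed, where 0.00502% of all genes did and 1390 had such a p.

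**Figure D4:**
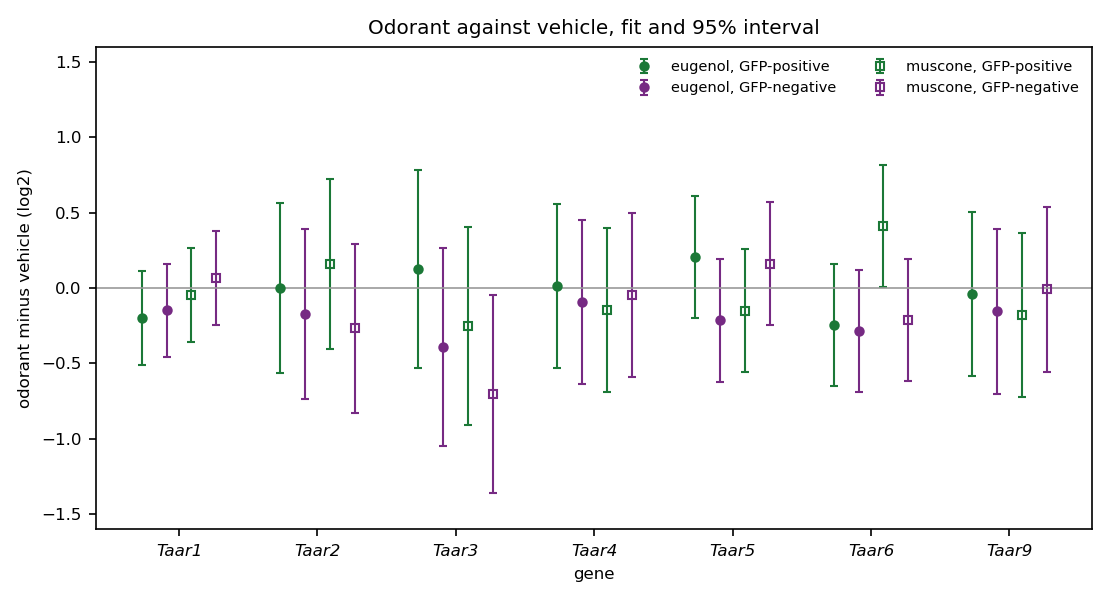
Odorant minus vehicle signal (log2) of each TAAR gene in GFP-positive and GFP-negative cells, for eugenol (filled) and for muscone (open); points are fitted differences over 4 experiments and bars their 95% intervals. No TAAR gene passed the test; the intervals of Taar6 (GFP-positive) and Taar3 (GFP-negative) after muscone lie just to one side of 0.

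The vehicle arrays of both sets of experiments received the same treatment, which allows a check of how far the differences repeat. The mean vehicle difference of Taar9 was 2.08 ± 0.37 (SD, n = 4) with the eugenol sets and 2.43 ± 0.69 with the muscone sets. For Taar4 the means were 1.67 ± 0.32 and 2.57 ± 1.01. Taar5 gave 1.06 ± 0.67 and 1.49 ± 0.59, and Taar3 gave 0.60 ± 0.72 and 1.48 ± 0.76. Taar2 gave −0.91 ± 0.52 and −0.59 ± 0.68, and Taar6 gave −0.30 ± 0.18 and −0.26 ± 0.32. The 6 members kept their sign in both sets. The sets did not differ past the threshold in any of the 7 by limma, and 0% of all genes passed, though 3104 had a raw p under 0.05. Taar4 was among these (−0.90, interval −1.67 to −0.126, adjusted p 0.255). Its 2 dimmest GFP-negative vehicle arrays were in the muscone experiments, where mature neuron markers also reached their lowest GFP-negative levels; the part of this in the difference was not tested.

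Of the 8 close paralogs Taar7a, Taar7b, Taar7d, Taar7e, Taar7f, Taar8a, Taar8b and Taar8c, 6 had a probe set of their own. Under vehicle 5 of these were higher in GFP-positive cells and 1 was lower. Among all genes 45.1% were called higher and 21.9% lower, and among odorant receptors 65.5% and 19.4%. Taar7e was +1.21 (adjusted p 8.74e-08), Taar8c +1.19 (3.98e-04), Taar7b +1.12 (1.72e-08), Taar7d +0.43 (0.00338) and Taar7f +0.34 (0.00388). Taar8b was −0.42 (0.00120). Taar8b and Taar8c were dim, with mean signals of 5.32 and 4.99. Taar7a and Taar8a were covered only by probe sets shared with their paralogs. The probe set common to Taar8a, Taar8b and Taar8c gave +0.68 and the one common to the 5 Taar7 genes gave +0.52. These genes are near-identical copies whose transcripts may hybridise to each other's probes, so their single values are uncertain. After eugenol 3 of the 6 were higher and 0 lower, where 28.3% of all genes and 59.3% of odorant receptors were called higher. After muscone 5 were higher and 0 lower, where these shares were 35.1% and 67.2%. None of the 6 passed in any comparison of odorant with vehicle, where at most 0.00502% of all genes did.

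Of the 3 nearest tested genes on each side of the cluster, none was called higher in GFP-positive cells under vehicle. Among all genes 45.1% were called higher and 21.9% lower. On the side of Taar1, Vnn1 and Vnn3, which make the pantetheinase enzymes called vanins, were +0.18 (adjusted p 0.0645) and −0.29 (0.00759) under vehicle. Slc18b1, a vesicular polyamine transporter, was +0.15 (0.270) under vehicle and was called higher after muscone, at +0.53 (0.0115), in 4 of 4 experiments. On the side of Taar9, Stx7, a syntaxin of late endosomes, was +0.07 (0.223) under vehicle. Moxd1, a monooxygenase-like protein, was −1.98 (6.84e-06) and Ccn2, a matrix-associated growth factor, was −0.56 (7.09e-04).

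Likeness to other genes was measured by Pearson correlation over the 32 arrays after the mean of each experiment's 4 arrays was subtracted. These arrays share experiments and the sort, so the values describe a common pattern over the groups and carry no test. Taar4 was most like Rexo2 (0.98), Olfr522 (0.98) and Acyp2 (0.98). For Taar9 they were Akap3 (0.98), Eomes (0.98) and Olfr204 (0.98), and for Taar5 Olfr52 (0.97), Olfr477 (0.96) and Olfr683 (0.96). Taar3 was most like Olfr549 (0.95), Olfr17 (0.94) and Chchd10 (0.94).

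Taar2 stood apart, with Olfr586 (0.87), Krt17 (0.86) and Krt5 (0.84) as its nearest genes; Krt5 and Krt17 are keratins, and Krt5 marks horizontal basal cells, the reserve stem cells of the epithelium. Krt5 was −1.51 in GFP-positive cells under vehicle, Icam1 −0.86 and Krt14 −0.89. All 4 horizontal basal markers were lower (median −0.87), where 21.9% of all genes were called lower. The range of their median signal was 7.86 to 9.41 over vehicle GFP-negative arrays and 6.95 to 8.87 over vehicle GFP-positive arrays. The part of these cells in the Taar2 result was not tested. Taar6 had no close match, its nearest being Olfr1193 (0.73), Olfr916 (0.73) and Olfr798 (0.72). Odorant receptors, 5.15% of the genes tested, made up 40 of the 100 genes nearest to Taar2, 34 for Taar9, 27 for Taar5, 16 for Taar6, 12 for Taar4 and 6 for Taar3.

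Among the members themselves, Taar4 and Taar9 correlated at 0.95, Taar5 and Taar9 at 0.95, and Taar4 and Taar5 at 0.95. Taar2 correlated at −0.57 with Taar9 and at +0.53 with Taar6. The fraction difference makes up much of these values. After the group means were removed as well, the remaining correlations were 0.47, 0.54 and 0.65 for the first 3 pairs, and +0.32 for Taar2 with Taar9 and +0.46 for Taar2 with Taar6. So Taar2 moved against Taar9 between the fractions, while the remaining correlation was positive and carries no test. This is not particular to Taar2, because most member pairs had a positive remaining correlation, also dim Taar1 with Taar9 (0.54). The exceptions were Taar1 with Taar5 (−0.01) and Taar1 with Taar6 (−0.08). With S100a5, the reporter's own gene, the correlations were 0.57 for Taar9, 0.46 for Taar5, 0.45 for Taar4, 0.39 for Taar3, 0.07 for Taar6 and −0.41 for Taar2. With Omp, the marker of mature olfactory neurons, they were 0.82 for Taar9, 0.84 for Taar5, 0.88 for Taar4, 0.91 for Taar3, 0.13 for Taar6 and −0.24 for Taar2. S100a5 itself was +0.43 in GFP-positive cells under vehicle (SE 0.15, adjusted p 0.0171), and Omp was +0.27 (adjusted p 0.00114). The S100a5 signal was uneven: it ran from 10.62 to 12.16 on the eugenol 1 arrays and from 4.63 to 8.08 on all others. Its vehicle signals were 12.16 in GFP-positive and 11.09 in GFP-negative cells in eugenol 1, but 4.67 and 4.63 in muscone 3. The S100a5 values are therefore limited by dim signal in part of the experiments.

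The signalling genes that TAAR neurons share with other olfactory neurons were higher in GFP-positive cells under vehicle, in 13 of 13 measured genes of the cascade (median +0.58). Examples are Pde1c, a phosphodiesterase of the olfactory cilia, at +0.81, Ano2, the calcium-activated chloride channel, at +0.79, and Cnga4, a channel subunit, at +0.63. The differences of Taar9, Taar4, Taar5 and Taar3 lay above that median and those of Taar2 and Taar6 below it. Of 6 receptor trafficking genes 4 were higher and 1 lower (median +0.40); the transport cofactors Reep1 and Rtp2 were +0.77 and +0.51, and Ric8b, a partner of the olfactory G protein, was +0.57. Of 15 genes of receptor choice 3 were higher and 6 lower (median −0.05). Among all genes 45.1% were called higher and 21.9% lower, which is the background of the list counts given here. Lbr, a nuclear envelope protein whose absence from these neurons lets receptor genes gather, was −1.04, the heterochromatin protein Cbx5 −0.39 and the transcription factor Ebf4 +0.37.

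Zone genes were measured because TAAR neurons are mostly dorsal. Of 5 dorsal genes 2 were higher and 1 lower: Nqo1 was +0.54, Acsm4 +0.47 and Sema3f −0.13. Of 4 ventral genes 1 was higher and 2 lower: Nfia was −0.67, Nfix −0.22 and Ncam2, the ventral adhesion molecule, +0.16. The zone lists have medians of +0.06 and −0.10, close to the +0.14 of all genes. Of all genes 45.1% were called higher and 21.9% lower.

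Other cell types also differed between the fractions under vehicle, where 45.1% of all genes were called higher and 21.9% lower. All 14 mature neuron markers were higher (median +0.54). Of 11 immature neuron markers 8 were lower and 1 higher (median −1.43), with Nhlh1 at −3.16 and Gap43 at −1.57. All 8 basal progenitor markers (median −2.01), all 7 microvillous cell markers (−1.48) and all 10 immune markers (−3.61) were lower. None of 5 sustentacular and 4 Bowman's gland markers passed, and 1 of 4 ensheathing glia markers was higher. Of 6 markers of guanylyl cyclase D neurons 3 were lower and 1 higher. The only erythroid marker measured, Alas2, was −3.15. How far these mixtures bear on the TAAR differences was not tested; with arrays centred on the mature neuron genes, Taar9 was +1.72 (adjusted p 1.00e-10), Taar4 +1.58 (3.12e-09), Taar5 +0.74 (1.85e-06), Taar3 +0.50 (0.0173) and Taar2 −1.29 (1.38e-07). In the same setting Taar6 was called lower, at −0.82 (2.21e-06), and Taar1 turned to −0.29 (0.0266). Most of all genes were also called lower in this setting, so a lower call there does not set a member apart.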

How the data were processed

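The deposited values are log2 probe set intensities of 35556 probe sets on 32 Affymetrix arrays, made in Affymetrix Expression Console per the submitters' processing notes. What version, background correction and normalization were used is not given in the sources used here. RefSeq tables of GRCm38.p6 gave gene order and promoter windows.

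Probe sets with 1 symbol were kept, and for each gene the probe set of highest mean signal was taken, which left 19938 genes. limma 3.58.1 in R 4.3.3 fitted all arrays at once, with a mean per group and a fixed block per experiment (14 coefficients, 18 residual degrees of freedom). Within an experiment, a shift shared by both fractions of the same stimulus was not fitted. In eugenol 2, for example, array medians were 8.81 and 8.74 under vehicle and 8.66 and 8.55 after eugenol. Tests were two-sided with Benjamini-Hochberg adjustment over all genes. A gene was called when the adjusted p lay under 0.05, and each adjusted p of a gene comes from limma. Intervals are 95%. Precision is limited by having 4 arrays in a group. The script was tested on simulated data.

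The block follows the titles, where 4 arrays share a number. It was checked by correlating deviations from group means: all 48 pairs of arrays of 1 experiment gave over 0.1 (0.20 to 0.91, median 0.66). Of 144 pairs from different groups and different experiments of the same odorant, 12 did (−0.72 to 0.44, median −0.21). The pair test of members was added after their values were seen, as were its alternatives.

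Named genes are the members, their paralogs, the 3 nearest tested genes on each side of the cluster, the 3 genes most like each olfactory member, S100a5, Omp and up to 3 genes of smallest p per list under vehicle. Members and lists were chosen with earlier results of these data known. Alternatives were no block or a random block, other centrings, quantile normalization, array weights, a filter on dim genes, the mean of all probe sets of a gene, adjustment over all probe sets, experiments of 1 odorant only, each experiment left out, and muscone 2 and 3 left out together.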

Additional observations from a re-analysis of the deposited data

Results flagged for a closer look

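A sample was listed here when it stood far from the other 3 arrays of its group, by a gap above Dixon's 95% critical share of the group's range. With 56 groups tested, chance alone gives about 1 in 20, and 3 were listed. Taar2 in vehicle GFP-negative cells read 10.00 in eugenol 2, where the next array read 8.28 (gap 0.938 of the range). Taar3 in GFP-positive cells after muscone read 8.86 in muscone 3, where the next read 10.90 (0.84). Taar9 in GFP-negative cells after eugenol read 7.43 in eugenol 3, where the next read 8.65 (0.89). Eugenol 2 had the highest and muscone 3 the lowest array medians of the 8 experiments (8.69 and 6.78).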

How the results depend on the processing

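Taar4, Taar5 and Taar9 were higher in GFP-positive cells under vehicle, past the threshold, in all 19 alternatives run for that comparison (lowest 1.48, 0.63 and 1.61). Without the replicate block 3 members were called under vehicle, 2 after eugenol and 2 after muscone, where the blocked fit called 6, 5 and 4; a random block changed none of the 7 calls under vehicle. Leaving out 1 replicate gave 5 to 6 calls under vehicle, 3 to 5 after eugenol and 4 to 5 after muscone. The share of all genes called was not set beside these counts, so they are no result about the members. The pair test passed 13 to 14 of 15 pairs throughout. A centring shifts both members of a pair alike, and the choices of block, weights, filter, adjustment and probe set mean leave their values unchanged. These alternatives could not alter the pair test, so only quantile normalization and the runs with experiments left out bear on it.

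A centring shifts all genes of a comparison alike, so members near 0 change sign and higher ones can lose a call. Arrays centred on mature neuron genes gave 7 calls after muscone. All genes shift in such a setting, so this count by itself does not set the members apart. There Taar1 turned to −0.29 under vehicle and −0.67 after muscone, and Taar6 to −0.47 after muscone. Centred on odorant receptors, Taar1 turned to −0.40 under vehicle, −0.43 after eugenol and −0.78 after muscone, and Taar6 to −0.58 after muscone. In that setting 2 members were called in GFP-negative cells after muscone, Taar1 (+0.35, adjusted p 0.0330) and Taar5 (+0.44, 0.0367). These centrings shift the median of all genes under vehicle from +0.14 to −0.40 and −0.51. The split of higher and lower calls over all genes then went from 8990 and 4375 to 736 and 15874, and to 605 and 18062; centred on the median of all probe sets it was 11680 and 3668. The cause of the other changes was not tested. For single members, 1406 values kept their direction and side of the threshold, 24 lost a call, 13 gained one, 7 reversed and 69 changed sign without a call. Dim signal limits Taar1, Taar8b and Taar8c.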
